A study of Mus musculus with 19 samples.

Results

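The genes described are the 9 that encode the surface proteins on which mouse myeloid progenitors are conventionally sorted, together with the related Fc receptors: Fcgr3, Fcgr2b, Fcgr1, Fcgr4, Fcer1g, Kit, Cd34, Ly6a and Il7r. They were chosen by name, as 9 of the 15781 genes measured, and each was read from the probe sets annotated to it alone, 81 in all. Affymetrix mouse exon arrays had been run on 19 samples of RNA from sorted bone marrow progenitors. Granulocyte-monocyte progenitors (GMP), which give rise to neutrophils and monocytes, were PR+/- Dnmt3a-/- (4 arrays), PR+/- (2 arrays), Dnmt3a-/- (3 arrays) or wild type (WT, 4 arrays). Common myeloid progenitors (CMP), the population from which GMP arise, were Dnmt3a-/- (3 arrays) or WT (3 arrays). Dnmt3a is a de novo DNA methyltransferase. The labels do not define PR; the series title points to PML-RARA, the fusion oncogene of acute promyelocytic leukaemia. The Dnmt3a-/- and WT mice were C57Bl/6J, whereas the labels of the PR+/- samples give no strain. Ages, the promoter that drives PR, the sort gates and whether each array was a separate animal are not given in the sources used here. The p-values therefore measure the spread between these samples only.

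CMP and GMP both express Kit, the receptor for stem cell factor, and Cd34, a sialomucin of progenitors and endothelium. Both lack Sca-1, the product of Ly6a, which marks stem cells and multipotent progenitors, and conventionally Il7r, the interleukin-7 receptor chain of lymphoid progenitors. They are separated by the antibody to CD16/32, which recognises the products of Fcgr3 and Fcgr2b and stains GMP more strongly than CMP. The Fc receptors bind the constant part of antibodies. The products of Fcgr1, Fcgr3 and Fcgr4 activate phagocytes through the shared signalling chain encoded by Fcer1g, while that of Fcgr2b inhibits. A difference between GMP and CMP in a gene whose protein defines the gate is therefore a check of the sort and not a finding. In bulk RNA, fewer cells of a type and less RNA per cell cannot be told apart.

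The promoters of Fcgr3 and Fcgr2b, the receptors read by the CD16/32 gate, of Fcer1g, the chain Fcgr3 signals through, and of Kit are shown to be read side by side. They are the 250 bases before the RefSeq transcript start (build GRCm38.p6), 5′ to 3′ on the gene's strand. Fcgr3 lies at chr1:171059404-171059653 on the minus strand, Fcgr2b at chr1:170976072-170976321 on the minus strand, Fcer1g at chr1:171234350-171234599 on the minus strand and Kit at chr5:75574737-75574986 on the plus strand. Capitals mark matches on either strand to GAGGAA, the core bound by the myeloid factor PU.1, or to TTGCNNAA, a motif of C/EBP factors.
Fcgr3: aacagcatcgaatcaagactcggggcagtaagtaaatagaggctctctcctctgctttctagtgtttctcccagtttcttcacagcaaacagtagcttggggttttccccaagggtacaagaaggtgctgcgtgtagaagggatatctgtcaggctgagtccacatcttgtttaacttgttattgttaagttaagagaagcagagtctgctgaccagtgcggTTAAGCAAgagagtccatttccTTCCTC
Fcgr2b: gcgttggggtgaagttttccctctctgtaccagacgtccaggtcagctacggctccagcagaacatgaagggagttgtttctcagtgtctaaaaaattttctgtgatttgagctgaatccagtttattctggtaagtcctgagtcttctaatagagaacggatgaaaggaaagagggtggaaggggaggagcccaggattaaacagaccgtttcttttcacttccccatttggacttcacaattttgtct
Fcer1g: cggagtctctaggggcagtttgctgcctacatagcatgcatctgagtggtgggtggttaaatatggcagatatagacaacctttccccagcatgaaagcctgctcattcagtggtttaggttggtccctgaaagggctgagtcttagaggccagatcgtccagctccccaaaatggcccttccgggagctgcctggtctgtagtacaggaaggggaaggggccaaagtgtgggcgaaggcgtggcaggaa
Kit: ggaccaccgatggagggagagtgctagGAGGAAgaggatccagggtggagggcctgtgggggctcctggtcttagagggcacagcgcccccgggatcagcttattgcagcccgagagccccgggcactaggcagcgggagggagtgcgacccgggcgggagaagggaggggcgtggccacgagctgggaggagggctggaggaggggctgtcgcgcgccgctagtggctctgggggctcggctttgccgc
The Fcgr3 window held 1 match to each motif, both on the strand opposite the gene and without overlap. The Kit window held 1 GAGGAA, and the Fcgr2b and Fcer1g windows held no match to either motif. The windows of Fcgr1 and Fcgr4 held 1 GAGGAA each, that of Il7r 1 TTGCNNAA and that of Cd34 none. GAGGAA was present in 23.3% of all 32851 promoter windows of that length and TTGCNNAA in 9.56%. AGATAA, the site of GATA factors, was present in 9.99% of all windows and in none of the 8 genes with a window. A match is only a run of letters. Ly6a has no entry.

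Dnmt3a itself read 5.82 to 6.49 (log2 intensity) on the 10 arrays labelled Dnmt3a-/-, against 7.07 to 7.65 on the other 9. Some arrays stood apart. The mean of the immediate early and heat shock genes was 8.96 and 8.79 on PR+/- Dnmt3a-/- GMP replicates 1 and 2, 8.03 and 7.95 on WT GMP replicates 1 and 2, and 9.12 on WT CMP replicate 1, against 5.84 to 7.47 on the other 14. WT CMP replicate 1 also carried the highest erythroid marker level, 8.70, and the highest B cell marker level, 6.43. Y-linked genes were low (2.54 to 3.25) on 9 arrays, which include all 6 Dnmt3a-/- arrays without PR, and 6.73 to 7.25 on the other 10. Title numbers ran from 22298 to 22303 on the Dnmt3a-/- arrays without PR and from 21986 to 22012 on the WT arrays. Without PR, Dnmt3a genotype and any array run that these numbers follow therefore cannot be told apart. All values below are log2 intensities per array. A level of 3.88, the median of 23 genes of other organs measured here, serves as background, and those genes ranged from 2.94 to 5.25. Where the lower of 2 group means lies under it, a fold is given as "at least". Probe sets differ in brightness, so no gene's level is set against another's.

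**Figure D1:**
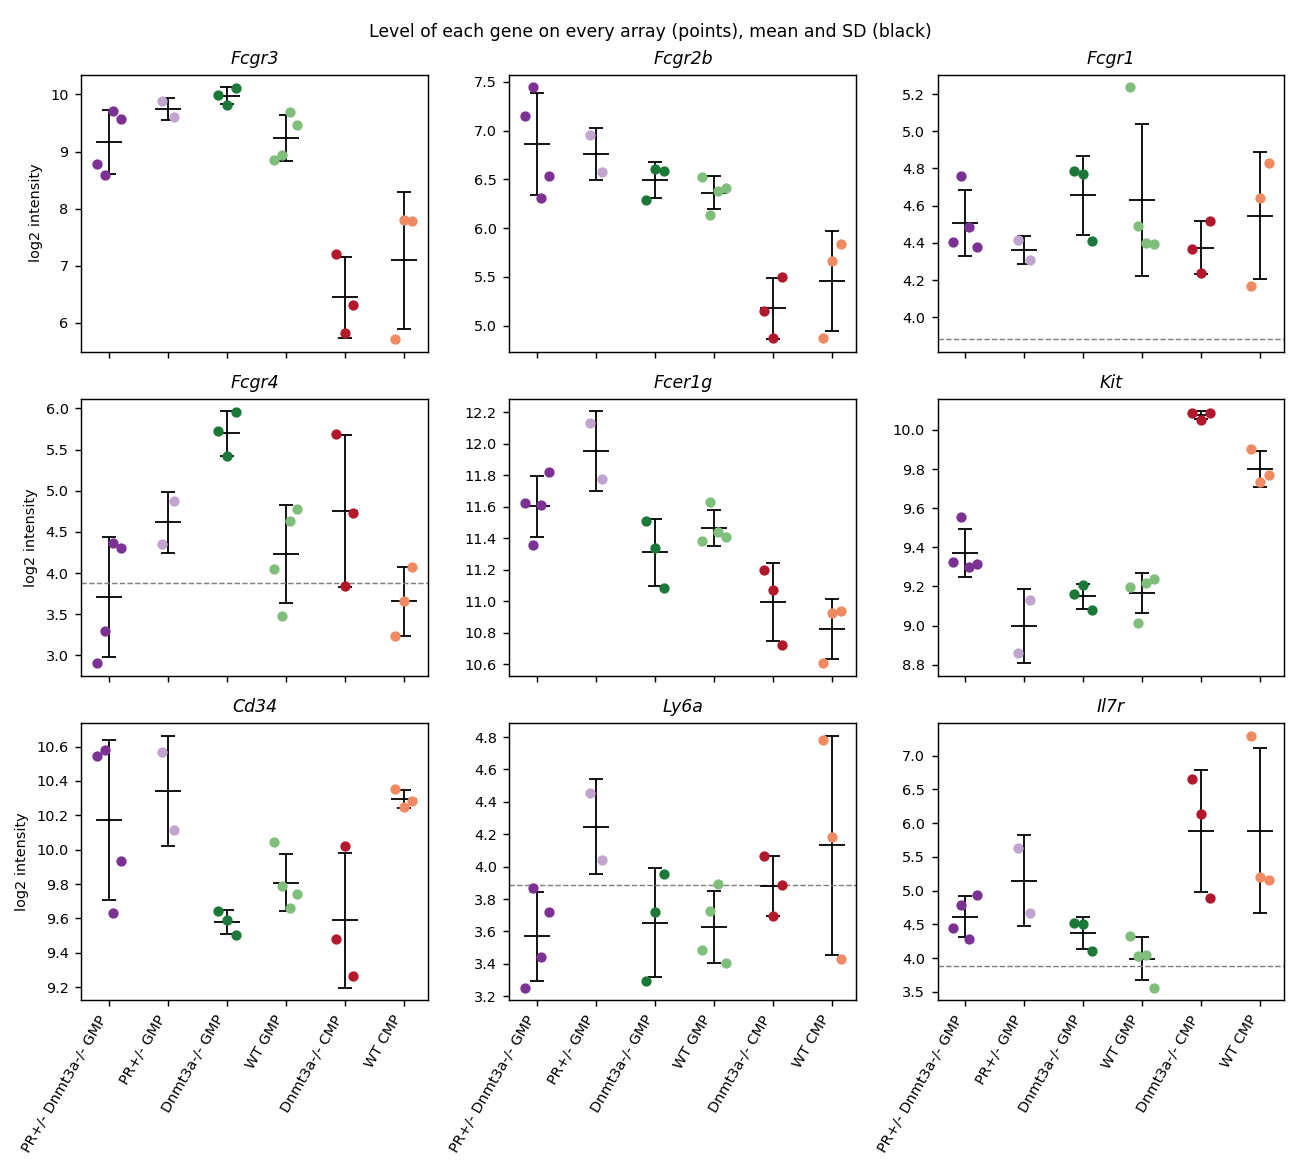
Level of each gene (log2 intensity, mean over its probe sets) on every array, by group. Points are arrays, black marks are group means ± SD, and the dashed line is the background level of 3.88 where it lies in range. Fcgr3 is at 8.60 or above on all 13 GMP arrays and at 7.80 or below on all 6 CMP arrays.

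Fcgr3, the activating receptor CD16, separated the populations most widely among these genes. It read 8.78, 8.60, 9.71 and 9.58 in PR+/- Dnmt3a-/- GMP, 9.88 and 9.60 in PR+/- GMP, 9.996, 9.82 and 10.12 in Dnmt3a-/- GMP and 8.86, 8.95, 9.69 and 9.47 in WT GMP. It read 7.21, 5.82 and 6.31 in Dnmt3a-/- CMP and 5.72, 7.80 and 7.79 in WT CMP. No GMP array overlapped any CMP array, and within WT CMP replicate 1 lay far below the other 2 arrays. By group mean the order was Dnmt3a-/- GMP (9.98 ± 0.15, n = 3), PR+/- GMP (9.74 ± 0.20, n = 2), WT GMP (9.24 ± 0.40, n = 4), PR+/- Dnmt3a-/- GMP (9.16 ± 0.56, n = 4), WT CMP (7.10 ± 1.20, n = 3) and Dnmt3a-/- CMP (6.45 ± 0.71, n = 3), with SDs. The arrays of neighbours in that order overlapped, except across the step between GMP and CMP. Between groups that are not neighbours, Dnmt3a-/- GMP lay above WT GMP and above PR+/- Dnmt3a-/- GMP without overlap. The difference between Dnmt3a-/- and WT GMP did not pass the test (0.74 ± 0.45 (SE), limma adjusted p = 0.385).

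Fcgr3 was 11.6-fold higher in Dnmt3a-/- GMP than in Dnmt3a-/- CMP (log2 difference 3.53 ± 0.48 (SE), limma adjusted p = 0.000437). It was 4.41-fold higher in WT GMP than in WT CMP (2.14 ± 0.45, limma adjusted p = 0.0165). The Dnmt3a-/- call held under every alternative run. Without WT CMP replicate 1 the WT difference was 1.45 (limma adjusted p = 0.0415). Within the WT arrays of title numbers 21986 to 21988 it was 3.19 and within the other WT arrays 1.78. The WT call was lost without WT GMP replicate 3 (limma adjusted p = 0.0503) and when only those 2 groups were fitted (0.0693). All 6 Fcgr3 probe sets were higher in GMP with no overlap between arrays, by 2.99 to 4.24 in Dnmt3a-/- and by 1.96 to 2.51 in WT. The wider step in Dnmt3a-/- cells did not pass the test of the difference between the 2 steps (1.39 ± 0.66, limma adjusted p = 0.754).

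The erythroid markers ran opposite to Fcgr3 across the step between CMP and GMP. Their mean level over 7 genes was 7.76, 7.47 and 8.06 in Dnmt3a-/- CMP and 8.70, 7.14 and 6.79 in WT CMP, against 4.63 to 5.80 on the 13 GMP arrays. Among the CMP arrays, WT CMP replicate 1 had the lowest Fcgr3 and the highest erythroid level, and WT CMP replicates 2 and 3 had the highest Fcgr3 and the lowest erythroid levels. The Dnmt3a-/- CMP arrays did not follow that order: replicate 2 had both their lowest Fcgr3, 5.82, and their lowest erythroid level, 7.47. Of these 7 markers, 5 fell in WT GMP against WT CMP, and in Dnmt3a-/- GMP 6 fell and 1 rose. Dendritic cell markers also fell (7 of 9 in WT, 8 of 9 in Dnmt3a-/-), as did megakaryocyte and platelet markers (5 of 8 and 7 of 8). Eosinophil markers rose (3 of 4 in WT and 4 of 4 in Dnmt3a-/-, where 1 of them, Il5ra, was under background in both populations). The part of any of these lists in the Fcgr3 difference was not tested.

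**Figure D2:**
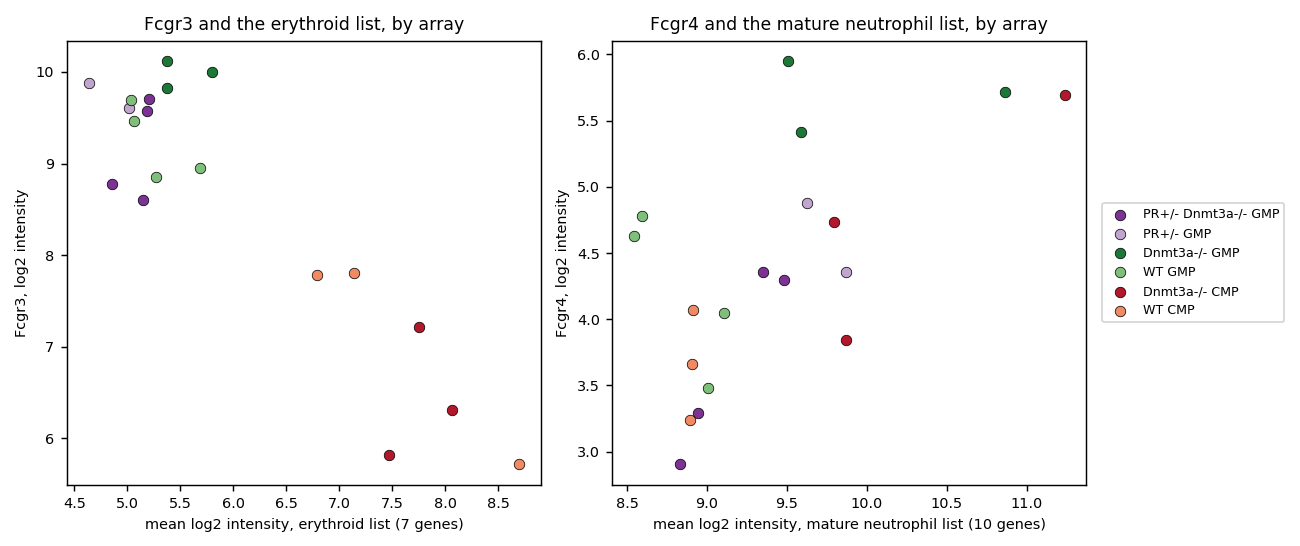
Each point is an array. Left, Fcgr3 (log2 intensity) against the mean level of 7 erythroid markers; right, Fcgr4 against the mean level of 10 mature neutrophil markers. CMP arrays lie at low Fcgr3 and high erythroid level, and Dnmt3a-/- CMP replicate 1 and Dnmt3a-/- GMP replicate 1 have the highest neutrophil levels, 11.24 and 10.86.

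Fcgr2b, the inhibitory receptor CD32, followed the same division with a smaller step. It read 7.15, 7.45, 6.31 and 6.54 in PR+/- Dnmt3a-/- GMP, 6.95 and 6.58 in PR+/- GMP, 6.28, 6.61 and 6.59 in Dnmt3a-/- GMP and 6.53, 6.13, 6.38 and 6.41 in WT GMP. It read 5.15, 4.87 and 5.50 in Dnmt3a-/- CMP and 4.87, 5.66 and 5.84 in WT CMP. All GMP arrays lay above all CMP arrays, and the 4 GMP groups overlapped except that both PR+/- arrays lay above the 4 WT arrays. The 7.45 of PR+/- Dnmt3a-/- GMP replicate 2 rests partly on 1 of the 8 probe sets, which read 7.93 there and 0.86 to 2.60 on the other 18 arrays. The mean of the other 7 probe sets was 7.38 on that array and 7.80 on replicate 1, against 7.71 and 7.31 on the PR+/- GMP arrays.

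Fcgr2b was 2.49-fold higher in Dnmt3a-/- GMP than in Dnmt3a-/- CMP (1.32 ± 0.24, limma adjusted p = 0.00259). It was 1.88-fold higher in WT GMP than in WT CMP (0.91 ± 0.22, limma adjusted p = 0.0344). In Dnmt3a-/- the call was kept without each array in turn and lost only with the median of probe sets (1.03, limma adjusted p = 0.0886). In WT it was lost with the median of probe sets (0.80, limma adjusted p = 0.232), in the fit of all 19 arrays (0.059), with only those 2 groups fitted (0.111), without title numbers 21986 to 21988 (0.65, 0.166) and without 5 single arrays. Those arrays were WT CMP replicate 1 (0.61, limma adjusted p = 0.135), WT CMP replicate 2 (0.0516) and WT GMP replicates 1 (0.0824), 3 (0.075) and 4 (0.0768). Of the 8 probe sets, 7 were higher in GMP in both genotypes, 5 of them by at least 1 log2 unit in Dnmt3a-/- and 4 in WT. Fcgr2b, Fcgr3 and Fcgr4 are related in sequence, and whether a probe set of one also reads another was not tested.

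**Figure D3:**
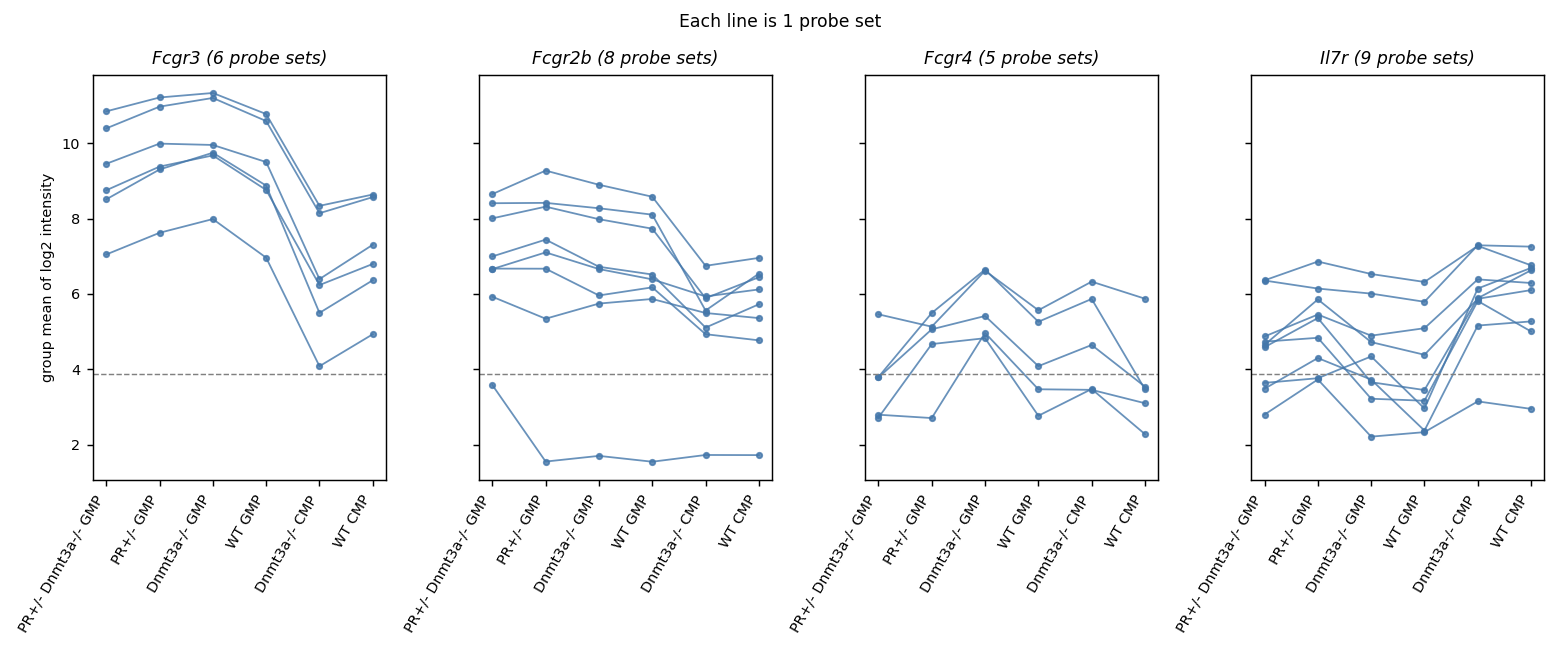
Group mean (log2 intensity) of each probe set of Fcgr3 (6), Fcgr2b (8), Fcgr4 (5) and Il7r (9), 1 line per probe set, with the background level of 3.88 dashed. All 6 Fcgr3 lines step down from GMP to CMP, all 5 Fcgr4 lines peak in Dnmt3a-/- GMP against the other GMP groups, and 1 dim Fcgr2b line is lifted in PR+/- Dnmt3a-/- GMP by a single array.

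Fcgr1, the high-affinity receptor CD64, had a low mean level with little spread between groups. It ranged from 4.38 to 4.76 in PR+/- Dnmt3a-/- GMP, from 4.31 to 4.41 in PR+/- GMP, from 4.41 to 4.79 in Dnmt3a-/- GMP and from 4.40 to 5.24 in WT GMP. It ranged from 4.24 to 4.52 in Dnmt3a-/- CMP and from 4.17 to 4.83 in WT CMP. All 19 means lie within the range of the background genes, but its probe sets differed widely, and 9 of 14 averaged above background. The brightest averaged 7.02 and read 6.01 to 7.69, and the next averaged 6.35 and read 5.52 to 7.37, both above the highest background gene on all 19 arrays. The background levels, however, are means over each gene's probe sets, and single probe sets of those genes were not compared. Whether these probe sets stand above background was therefore not tested. The interval of the difference between WT GMP and WT CMP ran from -0.39 to 0.55 log2 units (95%).

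Fcgr4, the activating receptor CD16-2 of neutrophils and monocytes, was low, with group means from 3.66 in WT CMP to 5.70 in Dnmt3a-/- GMP. It read 2.90, 3.29, 4.36 and 4.30 in PR+/- Dnmt3a-/- GMP, 4.36 and 4.87 in PR+/- GMP, 5.72, 5.42 and 5.95 in Dnmt3a-/- GMP and 4.05, 3.48, 4.63 and 4.78 in WT GMP. It read 5.69, 3.85 and 4.73 in Dnmt3a-/- CMP and 3.24, 3.66 and 4.07 in WT CMP. The 3 Dnmt3a-/- GMP arrays were the highest of the GMP arrays and overlapped none of the others, whereas the Dnmt3a-/- and WT CMP arrays overlapped. Only Dnmt3a-/- GMP and Dnmt3a-/- CMP replicate 1 exceeded the highest of the background genes.

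Averaged over CMP and GMP, Fcgr4 was higher in Dnmt3a-/- than in WT cells by 1.28 ± 0.29 log2 units (limma adjusted p = 0.0235), a fold of at least 2.25, since the WT CMP mean lay under background. Within GMP the difference was 1.46 ± 0.39 (limma adjusted p = 0.0841) and within CMP 1.10 ± 0.42 (limma adjusted p = 0.26), neither past the threshold. All 5 probe sets were higher in Dnmt3a-/- in both populations, by at least 1 log2 unit for all 5 in GMP and for 3 in CMP. The averaged call was lost with the Y-linked level as a covariate (0.70, limma adjusted p = 0.424) and without the WT arrays of title numbers 21986 to 21988 (0.94, limma adjusted p = 0.0831). It was also lost without Dnmt3a-/- CMP replicate 3 (0.0522) and without Dnmt3a-/- GMP replicate 1 (0.0611). Dnmt3a genotype and the range of title numbers cannot be told apart in this comparison.

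Mature neutrophil markers were also higher in Dnmt3a-/- cells. Their mean over 10 genes was 10.86, 9.59 and 9.51 in Dnmt3a-/- GMP, against 8.54 to 9.11 in WT GMP. It was 11.24, 9.87 and 9.80 in Dnmt3a-/- CMP, against 8.90 to 8.91 in WT CMP. In the average over both populations 6 of these 10 markers rose and none fell. Array by array the levels ran together only in part. Dnmt3a-/- CMP replicate 1 and Dnmt3a-/- GMP replicate 1, with the highest neutrophil levels, had Fcgr4 of 5.69 and 5.72. In PR+/- GMP the neutrophil level was 9.87 and 9.62, where Fcgr4 was 4.36 and 4.87. Among Dnmt3a-/- GMP the array with the lowest neutrophil level, replicate 3, had the highest Fcgr4. The part of neutrophils in the Fcgr4 difference was not tested.

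In PR+/- Dnmt3a-/- GMP Fcgr4 was at least 3.51-fold lower than in Dnmt3a-/- GMP (log2 difference -1.98 ± 0.37, limma adjusted p = 0.0214), and the mean of the PR+/- Dnmt3a-/- arrays lay under background. All 5 probe sets were lower by at least 1 log2 unit. The lowest values came from PR+/- Dnmt3a-/- replicates 1 and 2, whose immediate early genes were high. Without both of them the difference was -1.37 and the call was lost (limma adjusted p = 0.159). The call was also lost without any 1 of Dnmt3a-/- GMP replicates 1, 2 and 3 (0.0961, 0.0656 and 0.0971), without PR+/- Dnmt3a-/- replicate 1 or 2 alone (0.0532 and 0.0587), with brighter probe sets only (0.075), with only those 2 groups fitted (0.0568) and with the Y-linked covariate (0.174). The neutrophil level was 8.83, 8.94, 9.35 and 9.48 in PR+/- Dnmt3a-/- GMP. The labels of the PR+/- arrays have a style of their own and name no array run. PR and any array run that this style follows therefore cannot be told apart.

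Fcer1g, the signalling chain that the activating Fc receptors share, was bright on every array. It read 11.62, 11.35, 11.61 and 11.82 in PR+/- Dnmt3a-/- GMP, 12.13 and 11.77 in PR+/- GMP, 11.51, 11.34 and 11.09 in Dnmt3a-/- GMP and 11.38, 11.63, 11.44 and 11.41 in WT GMP. It read 11.20, 11.07 and 10.72 in Dnmt3a-/- CMP and 10.61, 10.93 and 10.94 in WT CMP. Every WT GMP array lay above every WT CMP array, while the Dnmt3a-/- populations overlapped. Fcer1g was 1.56-fold higher in WT GMP than in WT CMP (0.64 ± 0.15, limma adjusted p = 0.0324). That call was lost without WT CMP replicate 1 (0.151), WT CMP replicate 2 (0.06) or WT GMP replicate 2 (0.0642), 3 (0.0657) or 4 (0.0605), and with the median of probe sets (0.0686), quantile normalisation (0.0665), array weights (0.0504), only those 2 groups fitted (0.0783) or title numbers 21986 to 21988 left out (0.49, 0.27). In Dnmt3a-/- the difference was 0.31 ± 0.16 (limma adjusted p = 0.31), and the difference between the 2 steps did not pass the test (-0.33 ± 0.22, limma adjusted p = 0.87).

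Within groups Kit varied little (SD 0.02 to 0.19). It read 9.33, 9.56, 9.30 and 9.31 in PR+/- Dnmt3a-/- GMP, 8.86 and 9.13 in PR+/- GMP, 9.16, 9.21 and 9.08 in Dnmt3a-/- GMP and 9.20, 9.01, 9.22 and 9.24 in WT GMP. It read 10.08, 10.05 and 10.09 in Dnmt3a-/- CMP and 9.90, 9.73 and 9.77 in WT CMP. Every GMP array lay below every CMP array, and the CMP genotypes did not overlap. Kit was lower in Dnmt3a-/- GMP than in Dnmt3a-/- CMP (-0.93 ± 0.12, 0.526-fold, limma adjusted p = 0.000231) and in WT GMP than in WT CMP (-0.63 ± 0.11, 0.645-fold, limma adjusted p = 0.00468). All 22 probe sets were lower in GMP in both genotypes, 22 without overlap in Dnmt3a-/- and 17 in WT. The WT call was kept without each array in turn (limma adjusted p 0.00917 to 0.0248) and lost only with those 2 groups fitted alone (0.0582) and without the arrays of title numbers 21986 to 21988 (-0.52, 0.0524). Between genotypes in CMP the difference was 0.28 ± 0.12 (limma adjusted p = 0.311).

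Cd34 read 10.55, 10.58, 9.63 and 9.93 in PR+/- Dnmt3a-/- GMP, 10.57 and 10.11 in PR+/- GMP, 9.64, 9.59 and 9.51 in Dnmt3a-/- GMP and 10.04, 9.79, 9.66 and 9.74 in WT GMP. It read 9.48, 10.02 and 9.27 in Dnmt3a-/- CMP and 10.35, 10.25 and 10.29 in WT CMP. The WT CMP arrays were close together and above all Dnmt3a-/- CMP arrays, and all Dnmt3a-/- GMP arrays lay below all WT GMP arrays. Averaged over CMP and GMP, Cd34 was 0.723-fold in Dnmt3a-/- relative to WT cells (-0.47 ± 0.12, limma adjusted p = 0.0399). The call was lost in 10 of 13 fits that left out 1 array (limma adjusted p up to 0.0959) and kept without WT GMP replicate 2, WT GMP replicate 3 or Dnmt3a-/- CMP replicate 2. It was also lost with the median of probe sets (0.183), in the fit of all 19 arrays (0.0925), with adjacent title numbers as a random block (0.0565), without title numbers 21986 to 21988 (0.102) and with the Y-linked covariate (0.305). Here too, Dnmt3a genotype and the range of title numbers cannot be told apart.

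For Cd34, Dnmt3a-/- minus WT was -0.71 ± 0.18 among CMP (limma adjusted p = 0.0768). Among GMP it was -0.23 ± 0.16 (limma adjusted p = 0.458), and the 2 did not pass the test of their difference (0.48 ± 0.24, limma adjusted p = 0.783). All 11 probe sets were lower in Dnmt3a-/- than in WT CMP, 8 of them without overlap, and 8 of 11 were lower in Dnmt3a-/- GMP. The CMP difference passed without Dnmt3a-/- CMP replicate 2 (-0.92, limma adjusted p = 0.0186), with quantile normalisation (-0.84, 0.0464), with array weights (-0.68, 0.0272) and with a trended prior variance (0.048). In WT, GMP against CMP gave -0.49 ± 0.16 for Cd34 (limma adjusted p = 0.14).

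Ly6a had a mean level within the range of the background genes. It ranged from 3.25 to 3.87 in PR+/- Dnmt3a-/- GMP, from 4.04 to 4.46 in PR+/- GMP, from 3.29 to 3.95 in Dnmt3a-/- GMP and from 3.41 to 3.89 in WT GMP. It ranged from 3.69 to 4.07 in Dnmt3a-/- CMP and from 3.43 to 4.78 in WT CMP. The highest value was that of WT CMP replicate 1, and both PR+/- GMP arrays lay above the other GMP arrays. It has only 2 probe sets. One averaged 2.58, and the other, singled out after its values were seen, averaged 5.03. The brighter one read 5.73, 5.53 and 5.62 in Dnmt3a-/- CMP, all above the highest background gene, against 5.36, 5.30 and 4.82 in WT CMP. That background level is a mean over probe sets, and single probe sets of background genes were not compared. None of the Ly6a differences passed the test. PR+/- Dnmt3a-/- minus PR+/- GMP gave -0.68 ± 0.23 (limma adjusted p = 0.62) and PR+/- minus WT GMP 0.62 ± 0.23 (limma adjusted p = 0.176). In both the lower mean lay under background, and the higher mean, 4.25, lay within the range of the background genes. No minimum difference is therefore given.

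Il7r read 4.45, 4.78, 4.28 and 4.94 in PR+/- Dnmt3a-/- GMP, 5.62 and 4.67 in PR+/- GMP, 4.51, 4.50 and 4.10 in Dnmt3a-/- GMP and 4.33, 4.03, 4.04 and 3.56 in WT GMP. It read 6.65, 6.13 and 4.89 in Dnmt3a-/- CMP and 7.30, 5.20 and 5.16 in WT CMP. Every CMP array lay above the GMP arrays of its genotype, and WT CMP replicate 1 was the highest of all. Il7r was 0.269-fold in WT GMP relative to WT CMP (-1.90 ± 0.48, limma adjusted p = 0.0437). The WT GMP mean, 3.99, lay barely above background, with replicate 4 under it, so folds against it cannot be told from a bound. Without WT CMP replicate 1 the difference was -1.19 and the call was lost (limma adjusted p = 0.157), as it was without any 1 of WT GMP replicates 1 to 4 (0.0634 to 0.104). It was also lost with a median shift (0.0554), quantile normalisation (0.0572), array weights (0.079), only those 2 groups fitted (0.102) or title numbers 21986 to 21988 left out (-1.38, 0.19). In Dnmt3a-/- the difference was -1.52 ± 0.52 (limma adjusted p = 0.0883), and it passed without Dnmt3a-/- CMP replicate 3 (-2.02, limma adjusted p = 0.0344). It also passed with the adjacent title numbers of Dnmt3a-/- CMP and GMP arrays as a random block (limma adjusted p = 0.0468) and with array weights (0.00774). The same held with only those 2 groups fitted (0.0477) and without title numbers 21986 to 21988 (0.0215). All 9 probe sets were lower in GMP in both genotypes. B cell markers, over 6 genes, were 5.68 to 5.97 in Dnmt3a-/- CMP and 6.43, 4.999 and 5.06 in WT CMP, against 4.37 to 5.30 on the GMP arrays; their part was not tested.

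Il7r was also the only one of these genes past the threshold between PR+/- and WT GMP, 2.23-fold higher (1.16 ± 0.28, limma adjusted p = 0.0441), with all 9 probe sets higher and 5 by at least 1 log2 unit. Its interval ran from 0.55 to 1.76. Without PR+/- replicate 1 the difference was 0.68 and the call was lost (limma adjusted p = 0.535), in a fit that leaves 1 PR+/- array and takes its spread from the other groups. It was also lost without WT GMP replicate 2 (0.0695), 3 (0.0701) or 4 (1.01, 0.0921) and with brighter probe sets only (0.0811), a median shift (0.0516), all 19 arrays (0.222), only those 2 groups (0.114), the Y-linked covariate (0.0717) or title numbers 21986 to 21988 left out (1.34, 0.0751).

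Set against all genes, the count of these genes past the threshold varied by comparison. In Dnmt3a-/- GMP against Dnmt3a-/- CMP 3 of 9 passed (Fcgr3, Fcgr2b and Kit), where 10.1% of all genes did, and in WT GMP against WT CMP 5 of 9 passed (Fcgr3, Fcgr2b, Fcer1g, Kit and Il7r), where 4.30% of all genes did. Conventionally these 2 populations are set apart on the products of Fcgr3 and Fcgr2b, which are among the genes counted in both. The gates used here are not given. In Dnmt3a-/- against WT averaged over both populations 2 of 9 passed (Fcgr4 and Cd34), where 5.75% did. Within CMP 0 of 9 passed in limma (3 at an unadjusted p under 0.05), where 1.28% of all genes did, and within GMP 0 of 9 (1 unadjusted), where 1.33% did. In the test of whether the Dnmt3a difference was the same in GMP and CMP, 0 of 9 passed in limma (0 unadjusted), where 0% of all genes did.

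In PR+/- Dnmt3a-/- against PR+/- GMP 0 of 9 passed in limma (1 unadjusted, Ly6a), where 0% of all genes did. In PR+/- against WT GMP 1 of 9 passed, where 3.07% did, and in PR+/- Dnmt3a-/- against Dnmt3a-/- GMP 1 of 9, where 1.24% did. The Dnmt3a difference with PR minus that without PR passed for 0 of 9 in limma (4 unadjusted), where 0.0317% of all genes passed. Its largest values were -2.36 ± 0.57 for Fcgr4 (limma adjusted p = 0.165) and -1.32 ± 0.42 for Fcgr3 (limma adjusted p = 0.23). The GMP comparisons share arrays and are not independent.

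Counts of genes whose arrays did not overlap were of the same kind. Such genes numbered 4 of 9 in Dnmt3a-/- GMP against CMP, where 32.4% of all genes did not overlap, and 6 of 9 in WT GMP against CMP, where 13.9% did not. For Dnmt3a-/- against WT they numbered 2 of 9 in CMP, where the share of all genes was 23.1%, and 3 of 9 in GMP, where it was 16.6%. With PR they numbered 2 of 9 for PR+/- Dnmt3a-/- against PR+/- GMP (20.6% of all genes), 5 of 9 for PR+/- against WT GMP (28.5%) and 3 of 9 for PR+/- Dnmt3a-/- against Dnmt3a-/- GMP (14.8%).

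**Figure D4:**
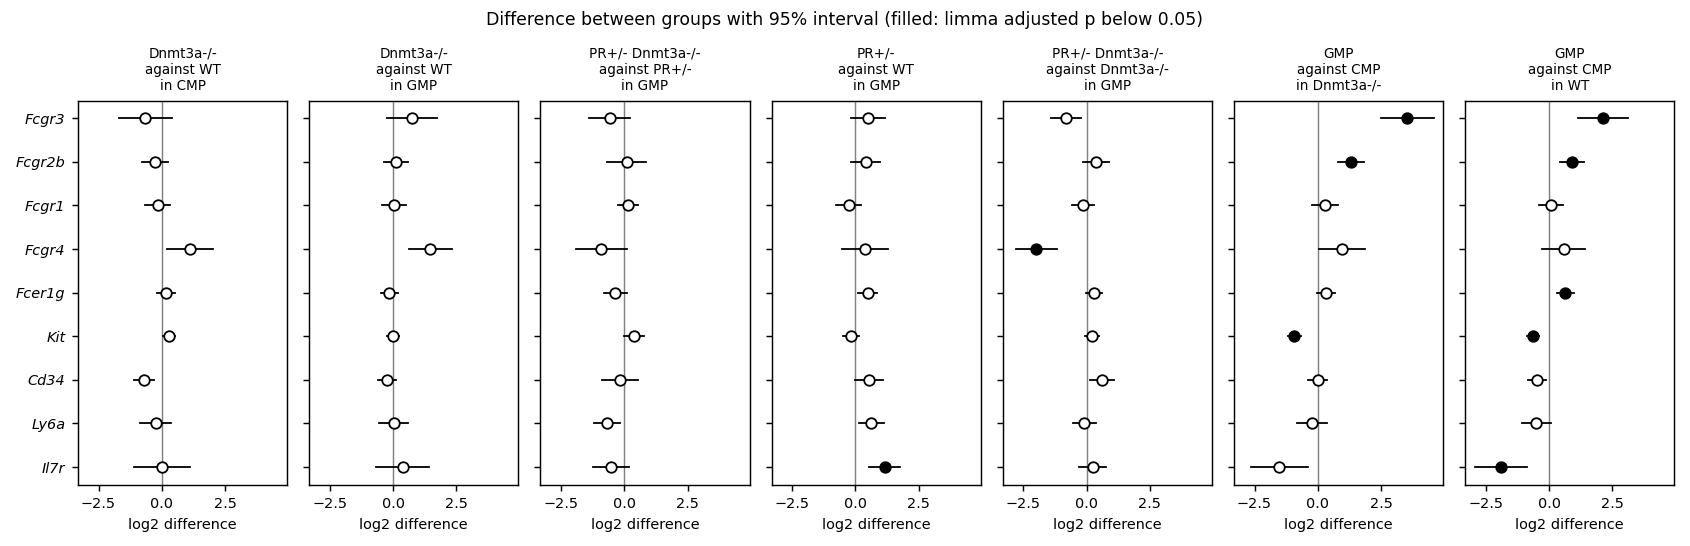
Log2 difference of each gene in 7 comparisons, the first-named group minus the second, with its 95% interval; filled symbols passed the limma test at an adjusted p under 0.05. Fcgr3 lies at 3.53 in Dnmt3a-/- and 2.14 in WT for GMP minus CMP, and Fcgr4 at -1.98 for PR+/- Dnmt3a-/- minus Dnmt3a-/- GMP.

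The other Fc receptors and their relatives were led by the chains of the IgE receptor. In Dnmt3a-/- against WT GMP 2 of 11 rose and none fell: Fcer1a, the IgE-binding chain (3.47 ± 0.43, limma adjusted p = 0.0022), and Ms4a2, its beta chain (2.28 ± 0.43, 0.0239). Fcer1g, which completes that receptor, gave -0.15 ± 0.15 (limma adjusted p = 0.597). In GMP against CMP, 2 rose and 2 fell in Dnmt3a-/-, among them Fcer1a, by at least 4.30 since the CMP mean of 3.53 lay under background (limma adjusted p = 6.62e-05), and Fcgrt, the neonatal Fc receptor (-1.10 ± 0.30, 0.032). In WT GMP against WT CMP, 1 rose, Fcer1a, by at least 0.83 for the same reason (CMP mean 2.56, limma adjusted p = 0.0126), and 1 fell, Trim21, a cytosolic antibody receptor (-0.55 ± 0.14, 0.0436). Between PR+/- and WT GMP only Ms4a2 passed (2.83 ± 0.43, limma adjusted p = 0.00452). Mast cell and basophil markers, a list that also holds Fcer1a and Ms4a2, averaged 7.86 to 8.59 in PR+/- Dnmt3a-/- GMP, 8.36 and 8.39 in PR+/- GMP and 7.90 to 8.43 in Dnmt3a-/- GMP, against 6.69 to 7.11 in WT GMP. Their part in these differences was not tested.

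Of 19 genes that signal downstream of Fc receptors, 1 rose and 2 fell in each GMP against CMP comparison. The kinase Fyn fell in both, with a difference of -1.48 ± 0.26 in Dnmt3a-/- (limma adjusted p = 0.00246) and -1.53 ± 0.24 in WT (0.00312). The adaptor Hcst rose (1.11 ± 0.25, limma adjusted p = 0.0104) and the adaptor Lat fell (-1.50 ± 0.37, 0.0214) in Dnmt3a-/-, while in WT the ligase Cbl rose (0.41 ± 0.11, 0.0499) and Plcg1 fell (-0.74 ± 0.18, 0.0395). Averaged over both populations, Dnmt3a-/- cells were higher in Hcst (0.82 ± 0.17, limma adjusted p = 0.015) and Lat (1.21 ± 0.26, 0.0172). Of 11 genes of the Kit ligand and its signalling, only Cbl passed in WT GMP against CMP.

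Among 10 partners and targets of Il7r, Dntt, the terminal transferase of early lymphoid cells, fell in GMP, with a difference from CMP of -4.15 ± 0.44 in Dnmt3a-/- (limma adjusted p = 9.27e-05) and -4.09 ± 0.41 in WT (0.000229). Il2rg, the common gamma chain that pairs with Il7r, was higher in PR+/- than in WT GMP (1.94 ± 0.23, limma adjusted p = 0.000997) and in PR+/- Dnmt3a-/- than in Dnmt3a-/- GMP (1.50 ± 0.21, 0.00415). Between PR+/- Dnmt3a-/- and Dnmt3a-/- GMP Il7r gave 0.24 ± 0.25 (limma adjusted p = 0.688). Of 9 Ly6 relatives of Ly6a, Ly6c2, an antigen of monocytes and granulocytes, rose in GMP in Dnmt3a-/- (at least 1.37, limma adjusted p = 0.00956) and in WT (1.23 ± 0.29, 0.0283). None of the 3 relatives of Cd34 passed in any comparison.

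Of 18 other antigens used to gate progenitors, 5 rose and 6 fell in Dnmt3a-/- GMP against CMP, and none rose and 6 fell in WT. Il5ra, among the 5 that rose, was under background in both Dnmt3a-/- populations (3.05 in GMP and 2.32 in CMP). No minimum difference is therefore given for it. Flt3, a receptor of multipotent progenitors, fell, with -2.15 ± 0.23 in Dnmt3a-/- (limma adjusted p = 9.27e-05) and -2.83 ± 0.21 in WT (2.75e-05). Slamf1 (CD150), under background in GMP, was lower by at least 1.59 in Dnmt3a-/- (limma adjusted p = 0.000105) and by at least 0.81 in WT (0.00261). Epor, the erythropoietin receptor, gave -1.86 ± 0.35 in Dnmt3a-/- (limma adjusted p = 0.00366) and -1.84 ± 0.33 in WT (0.00577). Between genotypes, Itga2b (CD41) rose in Dnmt3a-/- against WT cells in CMP (1.38 ± 0.21, limma adjusted p = 0.00563) and among GMP (1.11 ± 0.19, 0.015). Csf1r, the receptor of macrophage colony-stimulating factor, fell in both, with -1.71 ± 0.18 among CMP (limma adjusted p = 0.000563) and -0.87 ± 0.17 among GMP (0.028). In PR+/- against WT GMP 4 rose and 3 fell, led by Thy1, a surface antigen of T cells and some stem cells (4.89 ± 0.37, limma adjusted p = 4.83e-05). In PR+/- Dnmt3a-/- against Dnmt3a-/- GMP 1 rose and 3 fell, with Thy1 at 2.83 ± 0.33 (limma adjusted p = 0.00143).

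The genes whose levels ran most like each member over the 19 arrays were sought among 5748 genes. For Fcgr3 they were Gsr (Pearson r = 0.984) and Dstn (0.983), for Fcgr2b Lrp4 (0.935) and Mmp19 (0.929) and for Fcgr4 Chil3 and Itgam (0.892). For Fcer1g they were Cd53 (0.918) and Prepl (0.907), for Kit Ago1 (0.949) and Plekha5 (0.935), and for Cd34 Pecam1 (0.927) and B4galnt4 (0.853). For Il7r they were Myl10 (0.878) and Gfi1b (0.860), and for Ly6a Ifitm5 (0.840) and Necap2 (0.823). For Fcgr1 the closest, 4932415M13Rik (0.699) and Mmp7 (0.687), had group means near background (3.64 to 4.38), so nothing is read from them. These describe arrays that share groups and processing.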

How the data were processed

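Expression in 19 samples of sorted mouse progenitors was measured on exon arrays from 20 ng of total RNA each, per the labels. The authors deposited 1 linear intensity for each of 194293 probe sets and array. RMA, Partek and the build mm9 are named without a role, per the submitters' processing notes. Array medians were 53.0 to 56.8, so values were used as deposited. Log2 was taken, and a gene was the mean of its probe sets with 1 symbol (179496 of them; 1328 had several symbols and 13469 none), with no filter on dim genes. Symbols were updated through a RefSeq table of GRCm38.p6.

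Groups were fitted with limma 3.58.1 in R 4.3.3 (lmFit, eBayes, two-sided, Benjamini-Hochberg over 15781 genes, threshold 0.05). The 13 WT and Dnmt3a-/- arrays without PR, the 6 PR+/- arrays and the 13 GMP arrays made 3 fits. The script was tested on simulated data. The genes, the 8 companion lists and the 13 marker lists were chosen with earlier results of these data known. All 9 members are named, and companion genes past the threshold by example. Alternatives covered the probe set summary, scaling, weights, samples fitted, covariates, blocks and left-out arrays. The adjacent title numbers of Dnmt3a-/- CMP and GMP arrays were checked as pairs (r = 0.121, 0.139 and 0.171 over genes, all above 0.1) and entered as a random block in an alternative. Other combinations of these arrays were not correlated, so the values do not show that the arrays are pairs. The number of arrays limits the precision.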

Additional observations from a re-analysis of the deposited data

Results flagged for a closer look

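In the 2 groups of 4 arrays each gene was tested for an array far from the others (Dixon's ratio, critical value 0.829), 18 tests in all, of which chance flags about 1 in 20. Fcgr1 on WT GMP replicate 1 read 5.24 against 4.40 to 4.49 on the other 3 arrays, a gap of 0.887 of the range, and stayed within the levels of the background genes. Kit on PR+/- Dnmt3a-/- GMP replicate 2 read 9.56 against 9.30 to 9.33 on the other 3, also 0.887 of the range. Both arrays belong to the 5 with high immediate early and heat shock genes, whose part was not tested.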

How the results depend on the processing

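The number of the 9 genes past the threshold depended on the settings in most comparisons with calls. In WT GMP against WT CMP (5 genes) it was 3 with the median of probe sets, 3 with quantile normalisation, 3 with array weights, 0 with only the 2 groups fitted, 1 without the arrays of title numbers 21986 to 21988, and 1 to 5 when 1 array was left out. In Dnmt3a-/- GMP against CMP (3 genes) it was 2 with the median of probe sets, 4 with array weights, with only the 2 groups, with adjacent title numbers as a random block and without title numbers 21986 to 21988, and 3 to 4 when 1 array was left out. For Dnmt3a-/- against WT averaged (2 genes) it was 1 with the median of probe sets, 1 with all 19 arrays, 1 with adjacent title numbers as a random block, 0 with the Y-linked covariate, 0 without title numbers 21986 to 21988 and 0 to 2 when 1 array was left out. For Dnmt3a-/- against WT in CMP (0 genes) it was 1 with quantile normalisation, 2 with array weights, 1 with a trended prior variance and 0 to 1 when 1 array was left out. For PR+/- against WT GMP (1 gene) it was 0 with brighter probe sets only, with a median shift, with all 19 arrays, with only the 2 groups, with the Y-linked covariate and without title numbers 21986 to 21988, and 0 to 1 when 1 array was left out. For PR+/- Dnmt3a-/- against Dnmt3a-/- GMP (1 gene) it was 0 with brighter probe sets only, with only the 2 groups, with the Y-linked covariate and without PR+/- Dnmt3a-/- replicates 1 and 2 (an alternative chosen after seeing the data), and 0 to 1 when 1 array was left out. The cause was not tested, except that fits of fewer arrays have fewer degrees of freedom. In the other 4 comparisons it was 0 throughout, left-out arrays included (0 to 0). No difference of a single gene that passed changed sign: over the 9 genes and 10 comparisons, 1689 refitted differences kept their side of the threshold, 72 lost a call and 11 gained one. In addition 40 group levels moved by more than 1 SD with another probe set summary. Counts over all genes moved with the settings too. In WT GMP against CMP there were 678 calls, 380 with the median of probe sets, 705 with quantile normalisation and 742 with array weights. There were 258 with only those 2 groups and 379 without title numbers 21986 to 21988. For PR+/- against WT GMP there were 484, 850 with all 19 arrays and 269 with only the 2 groups. For Dnmt3a-/- against WT in CMP there were 202, and 1064 with array weights. The averaged comparison had 907 calls, 591 with adjacent title numbers as a block and 139 with the Y-linked covariate.

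PR+/- Dnmt3a-/- and PR+/- GMP share replicate numbers 1 and 2, but arrays with the same number correlated by only 0.0774 and 0.0169, so they share a number and no pairing was assumed. With the number as a replicate block 0 of the 9 genes passed, as without it, and 0 genes in all passed either way. Dim genes, Ly6a and Fcgr1 above all, cannot show differences that the background hides.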

Other observations

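Markers of other cells, given as values only, differed between the same groups. In Dnmt3a-/- GMP against CMP, 7 of 8 megakaryocyte and platelet, 8 of 9 dendritic cell, 7 of 9 stem and multipotent progenitor and 2 of 6 B cell markers fell. There 4 of 4 eosinophil markers rose, among them Il5ra, which was under background in both populations. Of the mast cell and basophil markers 6 of 9 rose and 1 fell. In WT GMP against CMP, 5 of 8, 7 of 9, 4 of 9 and 1 of 6 of the first 4 of these lists fell. Of the eosinophil markers 3 of 4 rose in WT, and of the mast cell and basophil markers 4 of 9 rose and 1 fell. Averaged over both populations, 7 of 8 megakaryocyte and platelet and 7 of 9 dendritic cell markers rose in Dnmt3a-/- against WT cells, while 4 of 11 monocyte and macrophage markers fell and 1 rose. Of 9 antigens of the lineage cocktail, which is used to deplete mature cells, Ptprc (0.45 ± 0.12, limma adjusted p = 0.0493) and Itgam (0.99 ± 0.22, 0.0242) rose in that average.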
